A study of Mus musculus with 11 samples.

Results

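The genes described here carry myostatin and activin signals in skeletal muscle: the ligand gene Mstn, the receptor genes Acvr2a, Acvr2b, Acvr1b and Tgfbr1, the genes of secreted inhibitors and a relative of them (Fst, Fstl3 and Fstl1), the signal transducer gene Smad3 and the intracellular inhibitor gene Smad7. These 10 genes were chosen by name, for their place in the pathway, with earlier results of these data known. All 10 were found among the 53465 genes of the count table. RNA was sequenced from the quadriceps, a large thigh muscle, of aged mice of the strain that the labels spell C57L/6JRj. Mice were given Myriocin, a fungal inhibitor of serine palmitoyltransferase, the first enzyme of sphingolipid synthesis, or the solvent DMSO. The mice were 18 months old at the start of treatment, which went on for 10 weeks. There were 6 Myriocin and 5 DMSO libraries, and untreated or young mice were not analysed here. Whether every library stands for its own mouse is not stated in the labels, so p-values refer to the spread between samples, which may be partly technical.

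Myostatin is a secreted protein of the TGF-beta family that muscle fibres make and that restrains muscle growth. It and the activins bind type II receptors (the products of Acvr2b and Acvr2a), which bring in a type I receptor (the product of Acvr1b or Tgfbr1), and the type I receptor phosphorylates SMAD2 and SMAD3. Phosphorylated SMADs pair with SMAD4, enter the nucleus and bind DNA. Follistatin, from Fst, and its relative from Fstl3 trap the ligands outside the cell, and SMAD7 blocks the type I receptor inside it.

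The promoters of Mstn and Acvr1b are shown because these genes had the smallest p-values of the 10 between Myriocin and DMSO. Each sequence is the gene's own strand over the 250 bases before the start of transcription in RefSeq, on build GRCm38.p6. Capitals mark matches, on either strand, to CAGAC (a short SMAD binding motif), CANNTG (the general E-box) and TATAAA (the TATA box). Any bases may stand at NN, and a match does not show which factor binds there.
Mstn, chr1:53061390-53061639, plus strand: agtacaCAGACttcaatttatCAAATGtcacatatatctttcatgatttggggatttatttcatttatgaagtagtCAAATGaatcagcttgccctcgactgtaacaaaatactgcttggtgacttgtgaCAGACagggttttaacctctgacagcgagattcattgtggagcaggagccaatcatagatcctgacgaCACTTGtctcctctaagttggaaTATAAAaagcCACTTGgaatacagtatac
Acvr1b, chr15:101173822-101174071, plus strand: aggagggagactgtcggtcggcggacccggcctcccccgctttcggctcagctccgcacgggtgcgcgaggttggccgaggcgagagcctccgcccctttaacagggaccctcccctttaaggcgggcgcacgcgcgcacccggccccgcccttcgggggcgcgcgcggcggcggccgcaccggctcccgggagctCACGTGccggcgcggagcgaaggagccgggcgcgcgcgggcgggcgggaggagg
The Mstn window held 2 matches to CAGAC, 4 to CANNTG and 1 to TATAAA, which began 29 bases before the start, and none of them overlapped another. The Acvr1b window held 1 match to CANNTG and no match to CAGAC or TATAAA, and 78.8% of its bases were G or C, against 38.4% in Mstn. RefSeq gave 9 windows for 8 of the 10 genes, 2 of them for Tgfbr1 (windows of Fst and Smad7 were not used here). CAGAC occurred in 5 of the 9 windows, against 42.2% of all 32851 windows, each likewise read over the 250 bases before the start. CANNTG occurred in 4 of the 9, against 66.2%, and TATAAA in 2 (Mstn and Fstl3), against 12.4%. GTCTAGAC, the palindromic SMAD motif, occurred in 0 of the 9 and in 0.167% of all windows.

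Each library held 22241131 to 23163721 reads counted in genes, so that 3 counts, the limit that a count of 0 allows, correspond to 0.130 to 0.135 CPM (read counts divided by the library total of gene counts and scaled up to a common total). Such limits cover counting error only. The fast fibre gene Myh4 averaged 66824 CPM, and the summed markers of muscle fibres ran from 184880 to 207023 CPM with Myriocin and from 170375 to 191905 CPM with DMSO, so the defining markers of the labelled tissue were present. Liver transcripts led by Alb (albumin) summed to 133 CPM in Myriocin library 4, and to 122 and 105 CPM in DMSO libraries 4 and 5, against 8.42 to 31.5 CPM in the other 8 libraries. Their part in the results was not tested. Values without these 3 libraries are given where they end a call or move a value by over 1.5 times.

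None of the 10 genes differed between Myriocin and DMSO at an adjusted p under 0.05, and neither did any other gene. edgeR's quasi-likelihood test called 0% of the 14117 genes tested at that threshold. At an unadjusted p under 0.05 it called 4.68% of them, and 2 of the 10: Mstn and Acvr1b, both higher with Myriocin. DESeq2, fitted to the same counts, called 6 genes over the table at an adjusted p under 0.05, of which 0 were among the 10, and limma-voom called 0. The log2 fold change (Myriocin over DMSO) was positive for 7 of the 10 and negative for 3, with a median of 0.11, while 46.3% of all tested genes were positive, with a median of -0.01. For 0 of the 10 did the CPM of the groups stand apart without overlap, as they did for 0.602% of tested genes. All 10 passed the filter on low counts.

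**Figure D1:**
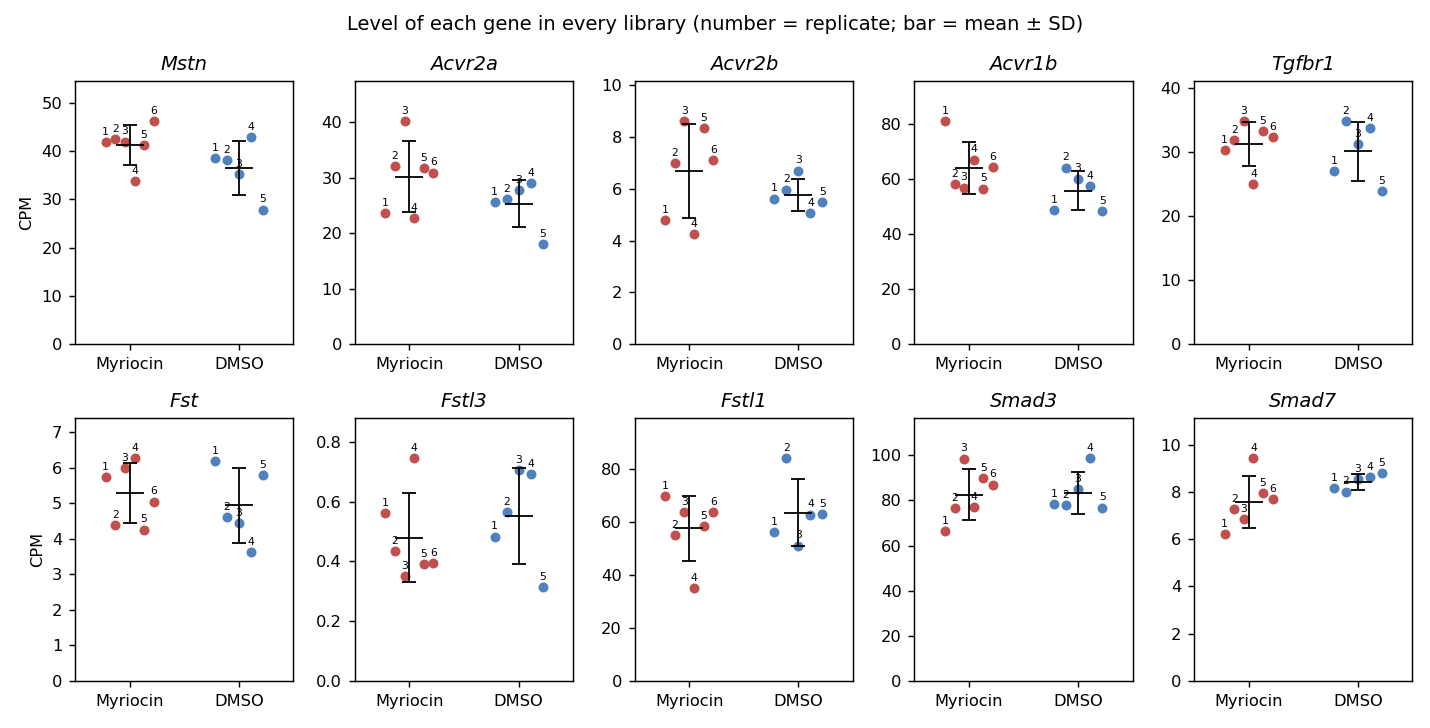
CPM of each of the 10 genes in every library, Myriocin left and DMSO right, with the replicate number over each point and black bars for the mean ± SD (6 Myriocin and 5 DMSO libraries). The groups overlap in every panel, and DMSO replicate 5 is the lowest of the 11 libraries for Mstn, Acvr2a, Acvr1b, Tgfbr1 and Fstl3.

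Mstn (ENSMUSG00000026100, GRCm38 chromosome 1, 53061640 to 53068079, plus strand) stood at 41.8, 42.5, 42.0, 33.7, 41.3 and 46.2 CPM in Myriocin libraries 1 to 6, against 38.6, 38.1, 35.2, 42.9 and 27.9 CPM in DMSO libraries 1 to 5. Myriocin library 6 was above every DMSO library, 5 of the 6 Myriocin libraries were above the DMSO mean, and the remaining Myriocin library, number 4, lay below 4 of the 5 DMSO libraries. The means were 41.3 ± 4.09 CPM with Myriocin and 36.5 ± 5.57 CPM with DMSO (SD, n = 6 and 5). The log2 fold change was 0.21 (SE 0.09, 95% interval 0.01 to 0.41), with an unadjusted p of 0.0413 and an adjusted p of 0.936 by edgeR. Its sign was positive under all 20 alternative fits, where the adjusted p ran from 0.420 to 0.9995. Without DMSO library 5 the log2 fold change of Mstn was 0.14, with an unadjusted p of 0.119 by edgeR. The unadjusted p of Mstn was over 0.05 in 8 of the 11 fits that left out 1 library: DMSO 2, 3 or 5, or Myriocin 1, 2, 3, 5 or 6.

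The type II receptor genes had higher means with Myriocin and overlapping groups. Acvr2a (ENSMUSG00000052155, chromosome 2, 48814109 to 48903269, plus strand) encodes the activin type II receptor that binds activins and also myostatin. It stood at 23.6, 32.1, 40.2, 22.7, 31.8 and 30.9 CPM in Myriocin libraries 1 to 6, against 25.6, 26.2, 27.7, 29.0 and 18.1 CPM in DMSO libraries 1 to 5. Myriocin libraries 2, 3, 5 and 6 were above every DMSO library, and libraries 1 and 4 were below all DMSO libraries except number 5. Acvr2a averaged 30.2 ± 6.42 CPM with Myriocin and 25.3 ± 4.26 CPM with DMSO (SD, n = 6 and 5), a log2 fold change of 0.29 (SE 0.14, 95% interval -0.01 to 0.59) with an adjusted p of 0.936 by edgeR. Of its annotated exon bases, 446 of 5686 are shared with Orc4 on the opposite strand, so that without a stated strand setting its count is uncertain to that extent.

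Acvr2b (ENSMUSG00000061393, chromosome 9, 119402118 to 119434995, plus strand) encodes the type II receptor with the higher affinity for myostatin. Its levels were 4.79, 7.01, 8.61, 4.26, 8.35 and 7.11 CPM in Myriocin libraries 1 to 6, against 5.62, 5.97, 6.70, 5.06 and 5.49 CPM in DMSO libraries 1 to 5. The same Myriocin libraries as for Acvr2a (2, 3, 5 and 6) were above every DMSO library, and libraries 1 and 4 were below every one. The coefficient of variation was 26.9% with Myriocin and 10.6% with DMSO, where counting error alone gives 8.35%. Acvr2b had a log2 fold change of 0.25 (SE 0.16, 95% interval -0.10 to 0.60), with an adjusted p of 0.936 by edgeR.

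Of the type I receptor genes, Acvr1b (ENSMUSG00000000532, chromosome 15, 101174067 to 101213684, plus strand), which encodes the activin receptor ALK4, stood at 81.1, 58.2, 57.0, 67.1, 56.6 and 64.3 CPM in Myriocin libraries 1 to 6, against 48.9, 64.3, 60.3, 57.6 and 48.3 CPM in DMSO libraries 1 to 5. All 6 Myriocin libraries were above the DMSO mean, but the lowest of them were below 3 of the 5 DMSO libraries. Acvr1b averaged 64.0 ± 9.39 CPM with Myriocin and 55.9 ± 7.03 CPM with DMSO (SD, n = 6 and 5). Its log2 fold change of 0.24 (SE 0.10, 95% interval 0.01 to 0.46) had an unadjusted p of 0.0386 and an adjusted p of 0.936 by edgeR, and adjusted p-values of 0.526 to 0.9995 over the 20 alternatives. Without Myriocin library 1, the highest of the 11, the log2 fold change of Acvr1b was 0.15 with an unadjusted p of 0.1003 by edgeR. The unadjusted p was also over 0.05 without Myriocin library 4 or 6 or DMSO library 1 or 5, and it was 0.185 without the 3 libraries with liver transcripts, where the log2 fold change was 0.19.

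Tgfbr1 (ENSMUSG00000007613, chromosome 4, 47353222 to 47414931, plus strand) encodes ALK5, the type I receptor for TGF-beta that myostatin also uses. It ranged from 25.04 to 34.8 CPM with Myriocin (median 32.1) and from 23.9 to 34.8 CPM with DMSO (median 31.3), so that the groups covered almost the same span. Tgfbr1 had a log2 fold change of 0.09 (SE 0.09, 95% interval -0.11 to 0.29), with an adjusted p of 0.945 by edgeR. The value was 0.03 without DMSO library 5 and 0.14 without Myriocin library 4 or DMSO library 4.

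The secreted inhibitors Fst and Fstl3 had the lowest levels of the 10 transcripts per exon length. Fst (ENSMUSG00000021765, chromosome 13, 114452290 to 114458951, minus strand) stood at 5.74, 4.40, 5.99, 6.28, 4.26 and 5.05 CPM in Myriocin libraries 1 to 6, against 6.20, 4.62, 4.45, 3.64 and 5.80 CPM in DMSO libraries 1 to 5. Neither group stood above the other, and Myriocin library 4, low for Mstn, was the highest of the 11 for Fst. The means of Fst were 5.29 ± 0.847 CPM with Myriocin and 4.94 ± 1.04 CPM with DMSO (SD, n = 6 and 5), a log2 fold change of 0.13 (SE 0.16, 95% interval -0.20 to 0.47) with an adjusted p of 0.948 by edgeR. The value of Fst was 0.05 without DMSO library 4 and 0.23 without DMSO library 1, and 0.05 without the 3 libraries with liver transcripts. An antisense gene, Gm47040, shares 115 of the 4589 exon bases of Fst.

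Fstl3 (ENSMUSG00000020325, chromosome 10, 79777272 to 79782630, plus strand), whose product circulates bound to myostatin, had 7 to 17 reads in a library. It ranged from 0.3498 to 0.747 CPM with Myriocin (median 0.415) and from 0.315 to 0.705 CPM with DMSO (median 0.566). Its coefficients of variation of 31.1% with Myriocin and 29.3% with DMSO were close to the 29.2% of counting error. The log2 fold change of -0.17 had a 95% interval of -0.77 to 0.43 (adjusted p 0.958 by edgeR). Over the 20 alternatives the value ran from -0.53 to -0.07, and at 7 to 17 reads counting error limits what can be seen. Prss57, on the opposite strand, shares 1157 of the 2445 exon bases of Fstl3, so its reads are the least certain of the 10.

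Fstl1 (ENSMUSG00000022816, chromosome 16, 37776873 to 37836514, plus strand), a secreted glycoprotein related to follistatin in sequence, was far more abundant. It stood at 69.8, 55.0, 63.6, 35.1, 58.3 and 63.8 CPM in Myriocin libraries 1 to 6, against 56.2, 84.2, 51.1, 62.9 and 63.1 CPM in DMSO libraries 1 to 5. Myriocin library 4 and DMSO library 2 lay far below and above the rest, which spanned 51.1 to 69.8 CPM. Fstl1 had a log2 fold change of -0.10 (SE 0.15, 95% interval -0.43 to 0.23), with an adjusted p of 0.952 by edgeR, and it was -0.0031 without Myriocin library 4 and -0.0057 without DMSO library 2. Markers of fibro-adipogenic progenitors, the connective tissue cells of muscle, led by Col3a1, summed to 393 CPM in Myriocin library 4, the lowest of the 11, while DMSO library 2 had 541 CPM. DMSO library 2 stood apart in other markers, with adipocyte markers led by Cfd at 1679 CPM where the other 10 libraries had 271 to 645 CPM, and neutrophil markers led by S100a9 at 673 CPM, against at most 93.3 CPM. Over all libraries the progenitor markers ran from 393 to 1011 CPM with Myriocin and from 479 to 791 CPM with DMSO, and none of the 8 was at 0. Their log2 fold changes were positive in 5 and negative in 3. In either direction, 3 of the 8 had an unadjusted p under 0.05 by edgeR, against 4.68% of all tested genes. The part of these marker lists in the levels of Fstl1 was not tested. In bulk tissue, fewer cells of a type and less RNA per cell cannot be told apart.

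Inside the cell, Smad3 (ENSMUSG00000032402, chromosome 9, 63646767 to 63757994, minus strand), the transducer of myostatin and activin signals, ranged from 66.5 to 98.5 CPM with Myriocin (median 82.0) and from 76.8 to 98.8 CPM with DMSO (median 78.3). Its means of 82.5 ± 11.4 CPM with Myriocin and 83.4 ± 9.22 CPM with DMSO (SD, n = 6 and 5) lay within each other's SD. Smad3 had a log2 fold change of 0.02 (SE 0.10, 95% interval -0.19 to 0.23; adjusted p 0.984 by edgeR), and its sign changed with the scaling and the libraries used.

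Smad7 (ENSMUSG00000025880, chromosome 18, 75367529 to 75395935, plus strand), the inhibitory SMAD that signalling itself induces, stood at 6.22, 7.27, 6.86, 9.44, 7.96 and 7.68 CPM in Myriocin libraries 1 to 6, against 8.17, 8.02, 8.55, 8.61 and 8.81 CPM in DMSO libraries 1 to 5. Myriocin library 4 was the highest of the 11, and the other 5 Myriocin libraries were below every DMSO library. Smad7 averaged 7.57 ± 1.10 CPM with Myriocin and 8.43 ± 0.329 CPM with DMSO (SD, n = 6 and 5), with coefficients of variation of 14.6% and 3.90%, where counting error gives 7.42%. The log2 fold change of -0.12 (SE 0.11, 95% interval -0.35 to 0.11) had an adjusted p of 0.936 by edgeR.

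**Figure D2:**
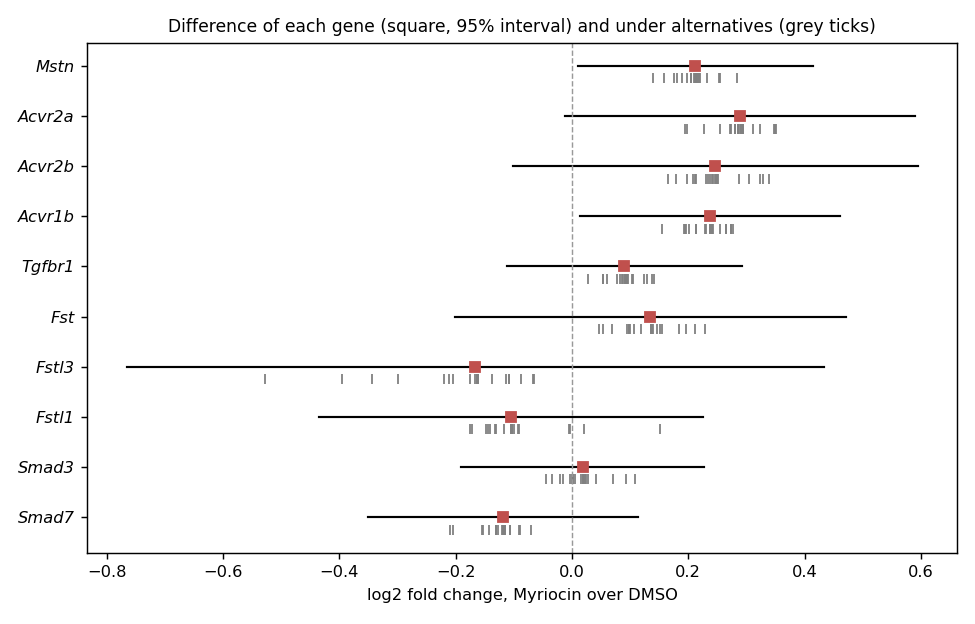
Log2 fold change of each gene, Myriocin over DMSO, with its 95% interval (square and line) and the values under the 20 alternative fits (grey ticks). The intervals of Mstn (0.01 to 0.41) and Acvr1b (0.01 to 0.46) lie above 0, and the other 8 include it.

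Single libraries and the scaling between libraries set which genes passed the unadjusted threshold. Without scaling, and with all 11 libraries kept, the unadjusted p was 0.110 for Mstn and 0.0832 for Acvr1b by edgeR. In that fit 791 of 14117 tested genes were under 0.05. Myriocin library 4 was the lowest of its group for Mstn, Acvr2a, Acvr2b, Tgfbr1 and Fstl1 and the highest for Fst, Fstl3 and Smad7. Without it, 4 of the 10 had an unadjusted p under 0.05: Mstn (0.0142), Acvr2a (0.0232) and Acvr2b (0.0304) with higher levels under Myriocin, and Smad7 (0.0373) with lower levels, while Acvr1b had 0.0760. Leaving out this library also moved the share of all tested genes under that threshold, to 10.3%, and no gene had an adjusted p under 0.05 by edgeR. The log2 fold changes were then 0.25 for Mstn, 0.35 for Acvr2a, 0.34 for Acvr2b and -0.20 for Smad7. The CPM of Smad7 then did not overlap between groups, as was so for 1.97% of tested genes. Without DMSO library 5, the lowest of its group for Mstn, Acvr2a, Acvr1b, Tgfbr1, Fstl3 and Smad3, 0 of the 10 were under the threshold, and the smallest of their unadjusted p-values was 0.0931 (Acvr1b). The count was also 0 without Myriocin library 6, 3 without DMSO library 4, and 1 with Myriocin library 1, 2, 3 or 5 or DMSO library 1, 2 or 3 left out in turn. Of all tested genes, 706 of 14263 were under the unadjusted threshold without DMSO library 4. That number was 558 of 14014 without Myriocin library 6 and 601 of 14263 without DMSO library 5. Without all 3 libraries with liver transcripts, the genes under the unadjusted threshold were Mstn (log2 fold change 0.25, p of 0.00256) and Acvr2a (0.31, p of 0.0405), and Acvr1b was no longer among them (0.19, p of 0.185). The adjusted p of Mstn was then 0.659 by edgeR, and 1022 of 14346 tested genes were under the unadjusted threshold. In that fit Fstl3 stood at -0.40 and Smad3 at 0.11.

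Set against each other per exon length, the 10 transcripts fell into 4 tiers whose ranges over the 11 libraries did not overlap. Smad3 (14.96 ± 1.80 CPM per kb of annotated exons; SD, n = 11), Mstn (14.5 ± 1.92), Acvr1b (13.7 ± 2.05) and Fstl1 (12.3 ± 2.47 CPM per kb) were highest. Their order is loose, since Smad3 was above Mstn in 6 of 11 libraries, Mstn above Acvr1b in 6 and Acvr1b above Fstl1 in 7. Acvr2a (4.92 ± 1.03 CPM per kb) and Tgfbr1 (4.71 ± 0.586) followed, with Acvr2a the higher in 7 of 11 libraries. The gap above them was narrow, from 7.07 CPM per kb (Acvr2a, Myriocin library 3) to 7.13 (Fstl1, Myriocin library 4). Smad7 (1.76 ± 0.205), Acvr2b (1.596 ± 0.361) and Fst (1.12 ± 0.198 CPM per kb) came next, and Fstl3 was lowest at 0.210 ± 0.0621 CPM per kb. Smad7 was above Acvr2b in 7 libraries and Acvr2b above Fst in 9.

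**Figure D3:**
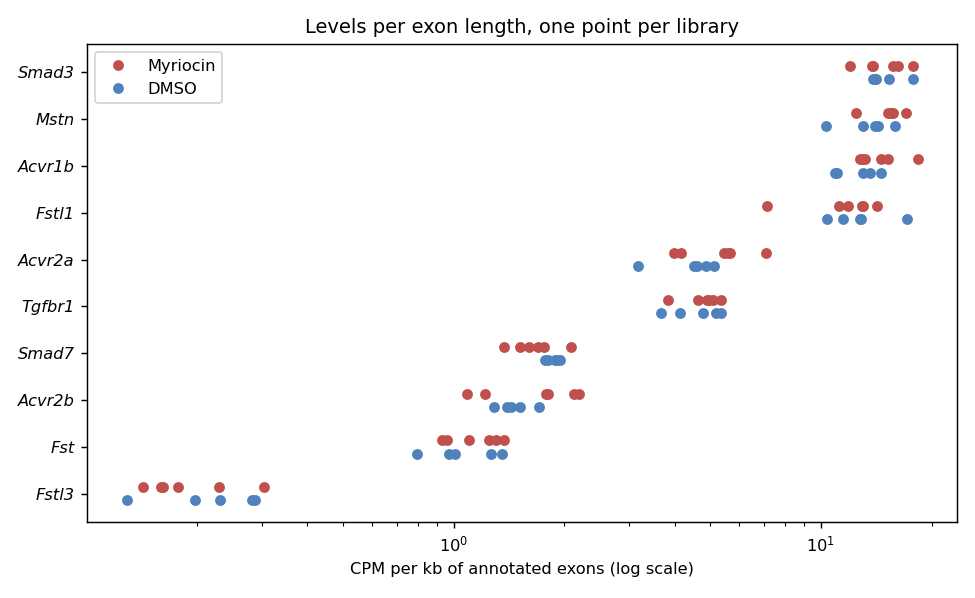
CPM per kb of annotated exons (log scale) of each gene, with 1 point per library, Myriocin above DMSO in each row. The gaps lie between Fstl1 and Acvr2a (a narrow one), between Tgfbr1 and Smad7, and between Fst and Fstl3, and the treatments overlap in each row.

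Ratios within a library placed receptors and inhibitors on 1 scale. Of the type II receptors, Acvr2b stood at 0.318 ± 0.0370 of the level of Acvr2a per exon length with Myriocin and 0.338 ± 0.0673 with DMSO (SD, n = 6 and 5). The type I receptor gene Acvr1b stood at 3.08 ± 0.704 times the level of Tgfbr1 with Myriocin and 2.75 ± 0.176 times with DMSO, and Myriocin libraries 1 and 4 had the highest values, both 3.96. Fst transcripts were 0.0768 ± 0.0191 of Mstn transcripts with Myriocin and 0.0827 ± 0.0274 with DMSO, and Fstl3 transcripts 0.0133 ± 0.00584 with Myriocin and 0.0166 ± 0.00378 with DMSO. Smad7 stood at 0.114 ± 0.0210 of Smad3 with Myriocin and 0.125 ± 0.0121 with DMSO. In each of the 5 ratios the groups overlapped. The exon length of Fstl3 includes the 1157 of 2445 bases shared with Prss57, so its level and ratio per exon length are uncertain to that extent.

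Across libraries, some of the genes varied together and others in opposite directions, but no relation passed correction. Correlations of log2 CPM over the 11 libraries, with each group's mean subtracted, were computed for 45 gene pairs and for each gene against Myh4, the fibro-adipogenic progenitor markers and the endothelium markers, 75 relations in all. At an adjusted permutation p under 0.05 there were 0, and at an unadjusted one 12, of which 9 were gene pairs. Acvr2a and Tgfbr1 had Pearson's r of 0.83 (permutation p 0.00251, adjusted 0.130) and Spearman's rho of 0.79 (permutation p 0.00544, adjusted 0.271), and r was 0.54 without Myriocin library 4 and DMSO library 5, the 2 farthest from the median of Acvr2a. Mstn and Tgfbr1 had r of 0.79 (permutation p 0.00574, adjusted 0.130) and rho of 0.51 (permutation p 0.113, adjusted 0.602), but r was 0.17 without the same 2 libraries, on which the relation rests. Likewise Mstn and Acvr2a had r of 0.72 (permutation p 0.0147, adjusted 0.151) and rho of 0.41 (permutation p 0.214, adjusted 0.729), and r was 0.10 without them.

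The r of Acvr2a with Acvr2b and with Smad3 was no lower without these libraries. Acvr2a and Acvr2b had r of 0.74 (permutation p 0.0104, adjusted 0.130) and rho of 0.64 (permutation p 0.0398, adjusted 0.384), and r stayed 0.74 without Myriocin library 4 and DMSO library 5. It was 0.95 among the 6 Myriocin libraries and 0.17 among the 5 DMSO libraries, which are too few to read an r from. Acvr2a and Smad3 had r of 0.75 (permutation p 0.00678, adjusted 0.130) and rho of 0.71 (permutation p 0.0178, adjusted 0.384), and r was 0.86 without the same 2 libraries. Fstl1 and the fibro-adipogenic progenitor markers had r of 0.78 (permutation p 0.00757, adjusted 0.130) and rho of 0.66 (permutation p 0.0300, adjusted 0.384), and r was 0.72 without Myriocin library 4 and DMSO library 2. In the other direction, Fstl1 and Smad7 had r of -0.77 (permutation p 0.00995, adjusted 0.130) and rho of -0.47 (permutation p 0.144, adjusted 0.602). Their r was -0.53 without Myriocin library 4 and DMSO library 2. Tgfbr1 and Fst had r of -0.68 (permutation p 0.0216, adjusted 0.162), and -0.56 without Myriocin library 4 and DMSO library 5. Smad7 and the progenitor markers had r of -0.76 (permutation p 0.0164, adjusted 0.151), but 0.28 without Myriocin libraries 1 and 4. All values of a library share its scaling to a total.

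**Figure D4:**
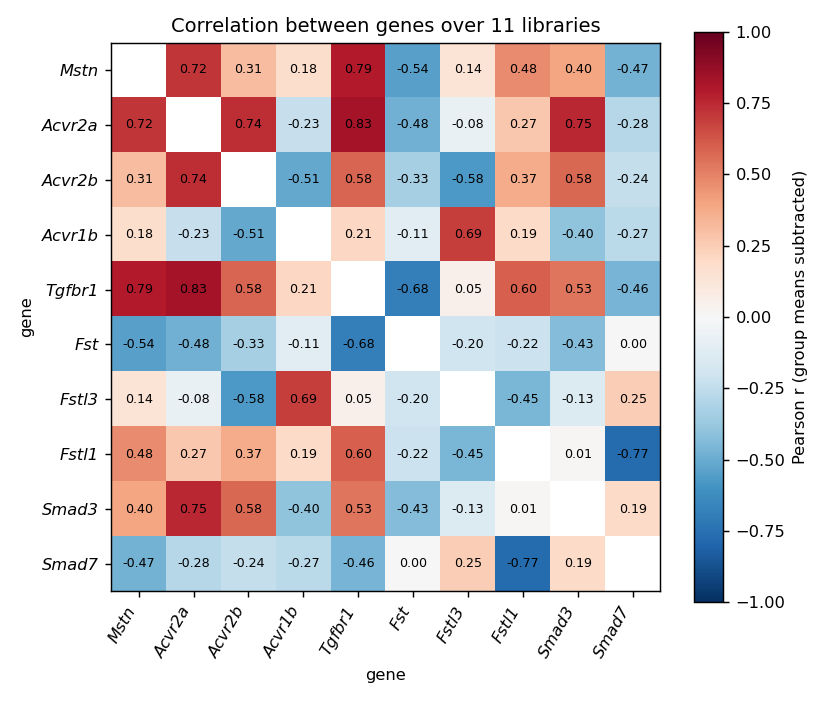
Pearson's r between the 10 genes over the 11 libraries (log2 CPM, group means subtracted; red positive, blue negative). The receptor genes Acvr2a and Tgfbr1 have the highest r (0.83), and Fstl1 and Smad7 the lowest (-0.77).

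Over the 11 libraries, the genes most like Mstn in log2 CPM among 12848 named genes tested were Tln2, encoding the adhesion protein talin 2 (r of 0.96), Focad (0.95) and the nuclear pore gene Nup205 (0.94). Without the 2 libraries in which Mstn lay farthest from its median, these values were 0.88, 0.91 and 0.75. The genes most like Fst were Sfxn2, encoding a mitochondrial carrier protein (r of 0.90), Gdpd3 (0.82) and Pde6d (0.81), and without 2 libraries they had 0.84, 0.63 and 0.82. These are the highest of 12848 values over 11 libraries and are given as a description only. Group means were not subtracted for them, unlike for the correlations above, so the 2 sets of r are not on the same footing.

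Beyond the 10 genes, 9 lists of other genes of the TGF-beta superfamily held 76 genes reported here, of which 65 were tested. The log2 fold change was above 0 for 27 of these and below 0 for 38 (median -0.03), and 0 had an adjusted p under 0.05 by edgeR. At an unadjusted p under 0.05 0 of these 65 were higher with Myriocin, against 2.33% of all tested genes, and 3 were lower, the ligand genes Tgfb3 and Inhbb and the repressor gene Tgif1, against 2.34%.

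**Figure D5:**
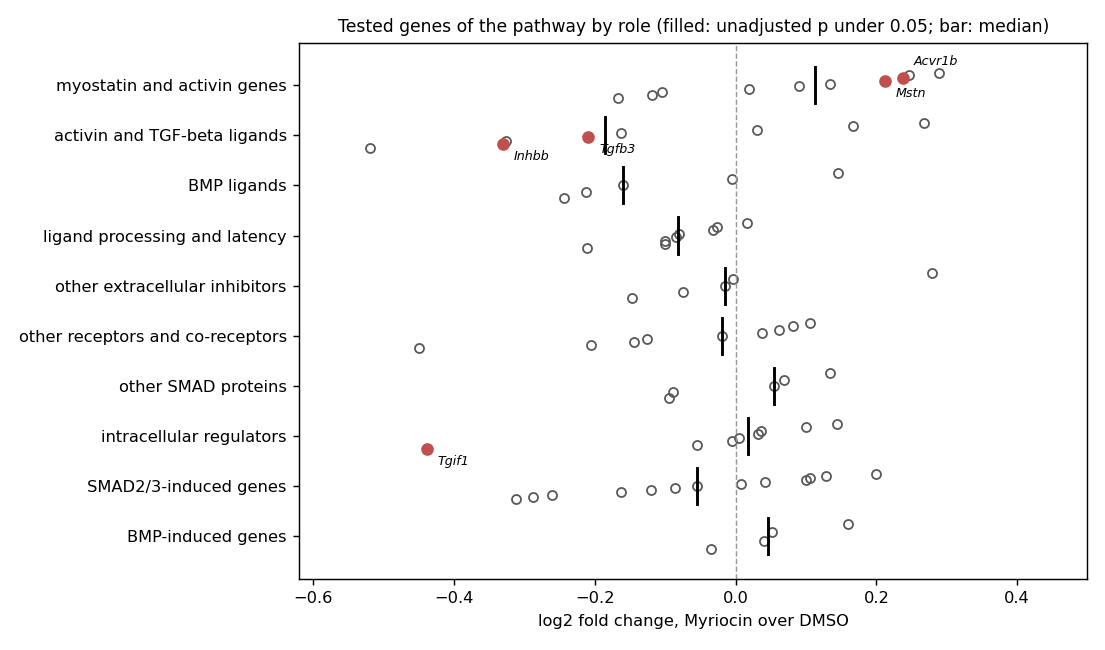
Log2 fold change, Myriocin over DMSO, of the 10 genes and of the tested genes in 9 further lists, with the list's median as a black line and filled points for an unadjusted p under 0.05. The medians of the lists lie between -0.19 and 0.11, and Tgif1 (-0.44) is the filled point farthest to the left.

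Among the activin and TGF-beta ligands, 3 genes had positive and 5 negative values, with a median log2 fold change of -0.19, and 2 more were not tested. Tgfb3, a TGF-beta isoform, averaged 39.6 ± 3.49 CPM with Myriocin and 47.0 ± 4.81 CPM with DMSO (SD, n = 6 and 5), a log2 fold change of -0.21 (SE 0.08; unadjusted p 0.0231, adjusted p 0.936 by edgeR), and 5 of 6 Myriocin libraries were below every DMSO library. Inhbb, the subunit gene of activin B, stood at 2.33, 2.35, 2.49, 1.67, 2.09 and 2.46 CPM in Myriocin libraries 1 to 6, against 2.46, 3.31, 2.87, 3.38 and 2.38 CPM in DMSO libraries 1 to 5. All 6 Myriocin libraries were below the DMSO mean of Inhbb, with a log2 fold change of -0.33 (SE 0.14; unadjusted p 0.0316, adjusted p 0.936 by edgeR). Without the 3 libraries with liver transcripts Inhbb stood at -0.24 with an unadjusted p of 0.130 by edgeR. The BMP ligands had 1 positive and 4 negative values with a median of -0.16. The smallest p-values there were those of Bmp6 (log2 fold change -0.21, SE 0.12) and Bmp4 (-0.24, SE 0.14). Of the genes that process ligands or hold them latent, 1 was positive and 7 negative, with a median of -0.08, among them the convertase gene Pcsk6 (log2 fold change -0.21, SE 0.14) and Ltbp3, for a latent TGF-beta binding protein (-0.10, SE 0.08). The other extracellular inhibitors had 1 positive and 4 negative values, with a median of -0.01, and the positive one was Lefty1, an inhibitor of nodal signals (log2 fold change 0.28, SE 0.19, adjusted p 0.936 by edgeR).

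The other receptors and co-receptors had 4 positive and 5 negative values with a median log2 fold change of -0.02. Eng, the endothelial co-receptor endoglin, averaged 48.8 ± 6.50 CPM with Myriocin and 57.6 ± 5.36 CPM with DMSO (SD, n = 6 and 5), with an unadjusted p of 0.0651 and an adjusted p of 0.936 by edgeR. Endothelial markers led by Cdh5 summed to 231 to 319 CPM with Myriocin and 290 to 329 CPM with DMSO, with negative log2 fold changes in 8 of 8, and their part in the value of Eng was not tested. Tgfbr2, the type II receptor of TGF-beta, had a log2 fold change of -0.13 (SE 0.09). Among the other SMAD genes 3 were positive and 2 negative with a median of 0.05, with Smad4, the partner of SMAD3, at 0.13 (SE 0.08) and Smad1, a transducer of BMP signals, at -0.10 (SE 0.10).

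Of the intracellular regulators, 5 were positive and 3 negative with a median log2 fold change of 0.02. Tgif1, a repressor that binds SMADs, stood at 6.61, 5.62, 5.90, 4.52, 4.87 and 6.85 CPM in Myriocin libraries 1 to 6, against 7.03, 6.23, 8.24, 9.74 and 8.45 CPM in DMSO libraries 1 to 5. Of the 6 Myriocin libraries 4 were below every DMSO library, and all 6 were below the DMSO mean of Tgif1. Its log2 fold change was -0.44 (SE 0.14, 95% interval -0.74 to -0.14), with an unadjusted p of 0.00721 and an adjusted p of 0.936 by edgeR. Without the 3 libraries with liver transcripts the value of Tgif1 was -0.21, with an unadjusted p of 0.169 by edgeR, and with any 1 library left out the p was 0.0275 at most. Nedd4l, a ubiquitin ligase for SMADs, had a log2 fold change of 0.14 (SE 0.07).

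The readout lists of the pathway had medians close to that of all genes. The SMAD2/3-induced genes had 6 positive and 7 negative values (median log2 fold change -0.05), led by Pmepa1, a target gene that feeds back on the pathway (29.4 ± 5.47 CPM with Myriocin and 35.99 ± 5.59 CPM with DMSO, SD, n = 6 and 5; log2 fold change -0.26, SE 0.13, adjusted p 0.936 by edgeR), and Ctgf, the connective tissue growth factor (-0.29, SE 0.17). The BMP-induced genes had 3 positive and 1 negative values with a median of 0.05, with Id1 at 0.16 (SE 0.22) and Id2 at 0.04 (SE 0.19), both inhibitors of basic helix-loop-helix factors. Of the 17 genes named from these lists, 8 share exon bases with another gene, so their counts are uncertain to that extent: Tgfb3, Bmp6, Bmp4, Pcsk6, Ltbp3, Eng, Nedd4l and Ctgf.

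Several of these 17 values also turned on single libraries. The 17 were named for the smallest p-values of their lists, and each was fitted 11 times with 1 library left out. Some crossing of the threshold follows from that choice, and how many of all tested genes crossed was not counted. The share of all tested genes under the threshold moved too. It was 4.68% with all libraries and 10.3% without Myriocin library 4, and it was lower than 4.68% in some other fits. Tgfb3 had an unadjusted p over 0.05 by edgeR without DMSO library 2 or 5 or Myriocin library 1, and Inhbb without DMSO library 2 or 4 or Myriocin library 4 or 5. Of the 14 genes not under the threshold, 10 were under it with some library left out: Lefty1, Pmepa1 and Ctgf without DMSO 1, Bmp6 and Eng without DMSO 2, Ltbp3 and Pmepa1 without DMSO 3, Pcsk6 and Tgfbr2 without DMSO 5, Ctgf without Myriocin 1, Eng and Smad4 without Myriocin 4, Nedd4l without Myriocin 5, and Eng and Pmepa1 without Myriocin 6. Without the 3 libraries with liver transcripts, the log2 fold change was -0.09 for Bmp6, 0.06 for Lefty1, -0.06 for Ltbp3, -0.15 for Smad1 and -0.115 for Pmepa1. Without the 3 farthest out on the principal components (Myriocin 4, DMSO 2 and DMSO 5), it was -0.12 for Bmp4, 0.11 for Lefty1, -0.13 for Ctgf, -0.18 for Smad1 and -0.09 for Pmepa1.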

How the data were processed

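RNA of the quadriceps was isolated with a Direct-zol kit and sequenced on the DNBseq platform, per the labels' protocols. The authors deposited raw counts per Ensembl gene for 11 libraries. The submitters' processing notes name STAR 2.5.2b, HTSeq 0.6.0 and build GRCm38. Neither the annotation release nor the strand setting is given in the sources used. The 5 summary lines (24.8% to 28.2% of reads) were left out. Symbols, coordinates and exon lengths came from GENCODE release M21 by identifier (53360 of 53465 genes).

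The test on counts was that of edgeR 4.0.16, under R 4.3.3 (filterByExpr with a minimum count of 10 and minimum total of 15, TMM, robust quasi-likelihood F test, treatment as the single factor, Benjamini-Hochberg over 14117 genes, threshold 0.05). SE was calculated from the F statistic. CPM is unscaled by TMM. Correlations used log2 CPM with a pseudocount of 0.5 counts and 100000 2-sided permutations. Alternatives were DESeq2 1.42.0, limma 3.58.1 (voom), other scaling and filters, and left-out libraries. The fit was tested on simulated data. The changes put into them were larger than those of the genes reported here, so power at the reported sizes was not examined. The genes, lists and tests were chosen with earlier results of these data known. 1 pathway gene is not reported here and is left out of the lists, their counts and the plots. Named beyond the 10 genes were the 2 smallest p-values of each list (1 in the list of the gene left out, which was not replaced), the 3 genes most like Mstn and Fst, and the most abundant gene of the marker lists used.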

Additional observations from a re-analysis of the deposited data

Results flagged for a closer look

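Among 64 groups of libraries checked for a value far from the rest of its group, 3 stood out, where chance gives about 1 in 20, or 3.2. Smad4 had 42.6 CPM in Myriocin library 4, against 54.0 to 55.9 CPM in the other 5 Myriocin libraries. Pmepa1 had 39.6 CPM in Myriocin library 6, against 25.2 to 30.5 CPM in the other 5. The ratio of Fstl3 to Mstn per exon length was 0.0245 in Myriocin library 4, against 0.00922 to 0.0148 in the other 5, and rests on 17 reads of Fstl3.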

How the results depend on the processing

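Under the 20 alternatives 0 of the 10 genes had an adjusted p under 0.05. Fstl1 turned positive without the 3 libraries farthest out on the principal components (Myriocin 4, DMSO 2 and 5; log2 fold change 0.15) and without the 3 with liver transcripts (0.020). Smad3 turned negative without scaling (-0.015) and without the 3 farthest out (-0.044), with a range of -0.034 to 0.093 over single libraries left out. Id2 turned negative with the replicate block (-0.044) and without the liver libraries (-0.030), with a range of -0.054 to 0.13. The count of the 10 genes at an unadjusted p under 0.05 was 0 without scaling, 0 with the block and 0 without the 3 farthest out, and 0 to 4 over single libraries left out. Counts of the other pathway genes were 2 higher and 5 lower without the 3 farthest out, 5 lower without scaling and 1 lower without the liver libraries, and 0 to 4 higher and 2 to 7 lower over single libraries left out. The counts over all tested genes, both directions together, moved as well, from 660 of 14117 in the main fit (329 higher and 331 lower). They were 1140 of 14303 without the 3 farthest out, 791 of 14117 without scaling and 1022 of 14346 without the liver libraries. With single libraries left out the share of all tested genes was 10.3% at most, without Myriocin library 4. The 4 higher pathway genes were found in that fit. The 7 lower were found without DMSO library 3, where 758 of 14258 tested genes were under the threshold. Outside the main fit the counts over all tested genes were not split by direction. Groups that did not overlap numbered 0 to 1. The causes were not tested. Without division by exon length the ratios are 0.226 (Acvr2b to Acvr2a), 1.98 (Acvr1b to Tgfbr1), 0.135 (Fst to Mstn) and 0.0970 (Smad7 to Smad3), as the lengths require. The replicate numbers showed no sign of pairing the samples, with correlations of -0.126 to 0.0971 between same-numbered libraries, none best with its own number. With 5 such pairs this cannot exclude a pairing. A fit with the replicate numbers as a block over 10 libraries called 509 genes at an unadjusted p under 0.05 and 0 adjusted. Without scaling the median of all genes was -0.05. At 7 to 17 reads, depth limits Fstl3.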
